A study of Mus musculus with 24 samples.

Results

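The resting effect of the fecal transplant donor was examined in invariant natural killer T (iNKT) cells of female mice: 3 libraries from mice with a CD1d-knockout transplant (KO FT) were set against 3 from mice with a wild-type transplant (WT FT). These 6 libraries were chosen by their labels out of 24 in the series. Each library held iNKT cells of the gut-draining (mesenteric) lymph nodes, taken from C57BL/6J females 24 h after a gavage of 200 µL PBS, and no aGC was given in either group. FT stands for fecal transplant: the dams of the mice, not the mice themselves, had received feces, and the donors of those feces were mice without CD1d in the KO FT group and wild-type mice in the WT FT group. The CD1d deletion was therefore in the feces donors only, and Cd1d1, the gene of the CD1d molecule that presents lipids to iNKT cells, had 105, 107 and 99.9 CPM (counts scaled to a common library size) in the KO FT libraries, against 117.7, 113.9 and 100.8 CPM in the WT FT libraries, ranges that overlapped. The other groups of the series were KO FT and WT FT males after PBS, and both sexes and transplants after 2 µg of aGC (alpha-galactosylceramide, a lipid antigen of iNKT cells) in the same volume, with 3 libraries each. The labels do not say how many mice, litters or dams stand behind a library, so a p-value here reflects only how far these libraries spread, and that spread may be technical. The transplant donor cannot be told apart from the dam, litter or cage that a group of mice shared.

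iNKT cells are T cells with a semi-invariant receptor that sees lipids on CD1d, and they leave the thymus already split into effector kinds that resemble T helper cells. The iNKT1 kind carries T-bet and makes interferon-gamma, the iNKT2 kind makes interleukin-4, and the iNKT17 kind makes interleukin-17. Cells that sense type I or type III interferon switch on a shared group of antiviral genes, the interferon-stimulated genes, through a transcription factor complex that binds short GAAA-rich DNA elements near their start sites. Signals from gut microbes are known to set the resting level of this group in many tissues.

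The 6 libraries held 14473057 to 37016768 estimated counts, with 14925268 to 22757422 in KO FT and 14473057 to 37016768 in WT FT, and 22020 to 25591 genes with a count. At these depths 3 counts, the limit that a count of 0 allows, equal 0.0801 to 0.203 CPM per library, which covers counting error only. Correlations of log2 CPM across tested genes were 0.983 to 0.987 within a group and 0.967 to 0.977 between KO FT and WT FT libraries. Replicate libraries were distinct, since chi-square values over genes came to 4.11 to 10.2 times their degrees of freedom. Xist, the RNA of the inactive X chromosome, had 40.8, 38.1 and 48.3 CPM in KO FT and 27.6, 36.8 and 37.5 CPM in WT FT, and the Y-linked Ddx3y had at most 0.133 CPM in any of the 6.

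The labelled cell type was checked first. Trav11, the variable segment of the invariant alpha chain, held 84.43 to 85.02% of all Trav counts in KO FT and 84.56 to 84.94% in WT FT. Traj18, its joining segment, held 87.0 to 87.5% of Traj counts in KO FT and 88.1 to 88.9% in WT FT. Every library of both groups was thus dominated by the invariant chain, whereas Trav11 held 67.3 to 69.0% in the KO FT males and 60.0 to 60.4% in the WT FT males after PBS. Among the beta chain segments, Trbv13-2 (Vβ8.2) held 31.8% ± 0.396 of Trbv counts in KO FT and 33.3% ± 0.247 in WT FT, and Trbv1 (Vβ2) held 20.1% ± 0.559 in KO FT and 16.5% ± 0.557 in WT FT (SD, n = 3 each). For both segments the groups did not overlap. The exact two-sided permutation p was 0.1 for each, the smallest that 3 against 3 libraries allow, and 0.2 after Benjamini-Hochberg adjustment over the 10 segments compared. Segments of 1 family share sequence, so the counting can split their reads: all 31-base words of Trav11 also occur in other annotated transcripts.

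Markers of other cells were examined next. Cd8a, a coreceptor of conventional cytotoxic T cells, had 5.15, 5.64 and 4.79 CPM in KO FT and 5.47, 6.66 and 6.77 CPM in WT FT, and Cd8b1 had 11.36, 11.01 and 11.13 CPM in KO FT against 10.33, 9.08 and 10.08 CPM in WT FT. Of 7 CD8 T cell markers none passed in either direction at an edgeR adjusted p under 0.05, against 14.9% of all genes higher and 14.9% lower, 1 was higher without KO FT library 1 and 1 lower without WT FT library 1. Their summed level was 208 to 225 CPM in KO FT and 239 to 244 CPM in WT FT. Cd8a and Cd8b1 made up only a small part of this sum in the females, and the rest came from the other markers of the list. In the male libraries the same sum was 636 to 654 CPM in KO FT and 1133 to 1155 CPM in WT FT. B cell markers summed to 1159 to 1200 CPM in KO FT and 1131 to 1180 CPM in WT FT, with 1 of 16 higher and 1 lower. The higher one was Cd79b, a chain of the B cell receptor, and the lower one H2-Ab1, an MHC class II chain, whose call was lost without KO FT library 1 or 3 or WT FT library 1 or 2 (adjusted p 0.0338 with all).

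Myeloid markers moved in both directions. Lyz2, the lysozyme of macrophages and neutrophils, had 33.4, 35.8 and 39.9 CPM in KO FT and 60.8, 59.0 and 63.3 CPM in WT FT, and C1qb, a complement chain made by macrophages, had 4.995, 6.038 and 6.378 CPM in KO FT and 2.40, 2.76 and 2.44 CPM in WT FT. Both pairs of ranges stood apart, Lyz2 lower in KO FT (log2 change -0.75 ± 0.12 SE, edgeR adjusted p = 5.96e-05) and C1qb higher (1.198 ± 0.20, edgeR adjusted p = 0.000118). Of 13 myeloid and dendritic markers 3 were higher and 4 lower, with a summed level of 66.0 to 78.5 CPM in KO FT and 89.5 to 95.1 CPM in WT FT. Sirpa was at 0 counts in all 3 KO FT libraries and at 0.694, 0.460 and 0.406 CPM in WT FT, at least 9.86-fold lower in KO FT against a limit of 3 counts over the group. Of 6 plasmacytoid dendritic cell markers, cells known for making type I interferon, Tcf4 and Bst2 were higher and Ccr9 lower, and the defining Siglech had 1.26, 1.73 and 1.67 CPM in KO FT and 1.01, 0.919 and 0.947 CPM in WT FT (edgeR adjusted p = 0.322). Bst2 is also an interferon-stimulated gene and Ccr9 a gut-homing receptor that T cells carry.

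Of 55335 genes counted, 15953 were tested, and 4758 of them (29.8%) differed between KO FT and WT FT at an adjusted p under 0.05, 2384 higher (14.9%) and 2374 lower (14.9%) in KO FT. Against a threshold of 1.5-fold 285 genes passed (1.79%), 152 higher (0.953%) and 133 lower (0.834%). Without any regard to a test, the 3 KO FT libraries lay wholly above the 3 WT FT libraries in 3682 genes (23.1%) and wholly below in 3767 (23.6%). The median log2 change over all tested genes was 0.00, and the counts of each gene group are to be read against the shares of 14.9% in each direction. In bulk RNA, fewer cells of a kind and less RNA per cell cannot be told apart. When the 3 libraries of each of the 8 groups were summed to 1 profile and the 3-way term was left out of the fit, 2 genes passed, and none of the genes named with values kept its call.

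The interferon-stimulated antiviral effectors were mostly higher in the KO FT libraries. Among the 47 such genes, all of them tested, 29 were higher in KO FT, 2 were lower and 16 did not pass, and 12 passed against 1.5-fold. The median log2 change of the 47 was 0.53 against 0.00 over all genes, with a range from -0.39 to 2.08. In 34 of the 47 the KO FT libraries lay wholly above the WT FT libraries, in 2 wholly below, and in 11 they overlapped. The interferon genes themselves were barely counted: of 20 type I and type III interferon genes, 3 had any count, with 36 counts over the KO FT libraries and 28 over the WT FT libraries, of which 36 and 26 were of Ifnz.

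The proximal sequence of 5 members that rose is shown because they share the letters that interferon-activated factors are known to bind. They are examples, not the members with the 5 largest changes. Each line gives the 200 bases before the RefSeq start on the gene's own strand, 5′ to 3′ (RefSeq, GRCm38.p6), and capitals mark matches to GAAA and GAAA with any 2 bases between, or to TTTC and TTTC in the same way on the other strand. Ifit3 lies on the plus strand at chr19:34583329-34583528, Ifit3b on plus at chr19:34607757-34607956, Ifit1 on plus at chr19:34640689-34640888, Isg15 on minus at chr4:156200819-156201018 and Rsad2 on minus at chr12:26456453-26456652.
Ifit3: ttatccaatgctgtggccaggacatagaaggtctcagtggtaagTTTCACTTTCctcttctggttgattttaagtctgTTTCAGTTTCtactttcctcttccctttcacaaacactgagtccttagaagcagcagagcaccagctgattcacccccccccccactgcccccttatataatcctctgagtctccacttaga
Ifit3b: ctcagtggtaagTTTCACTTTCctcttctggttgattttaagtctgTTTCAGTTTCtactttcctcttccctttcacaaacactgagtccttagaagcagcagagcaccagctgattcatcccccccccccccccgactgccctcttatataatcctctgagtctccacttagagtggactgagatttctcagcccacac
Ifit1: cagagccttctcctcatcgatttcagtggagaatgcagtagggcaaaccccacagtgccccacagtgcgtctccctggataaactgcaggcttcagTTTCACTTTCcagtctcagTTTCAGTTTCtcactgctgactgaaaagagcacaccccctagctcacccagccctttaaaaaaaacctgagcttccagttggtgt
Isg15: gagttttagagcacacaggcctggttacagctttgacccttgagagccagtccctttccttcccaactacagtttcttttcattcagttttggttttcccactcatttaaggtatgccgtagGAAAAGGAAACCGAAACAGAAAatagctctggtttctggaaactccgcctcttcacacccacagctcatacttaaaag
Rsad2: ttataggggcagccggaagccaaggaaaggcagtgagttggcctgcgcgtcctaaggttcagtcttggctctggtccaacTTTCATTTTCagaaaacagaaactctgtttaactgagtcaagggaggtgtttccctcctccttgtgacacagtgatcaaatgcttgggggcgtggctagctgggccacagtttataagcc

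Counted from the start site, the first matches lie at -156 to -147 in Ifit3, -188 to -179 in Ifit3b, -104 to -95 in Ifit1 and -120 to -111 in Rsad2, and 3 overlapping matches in Isg15 run from -78 to -57. The Ifit3 and Ifit3b sequences share an unbroken run of 119 bases. Over windows of 250 bases before to 50 after the start, 1131 of the 32851 in the RefSeq table held the letters (3.44%), and 418 of the 10572 tested genes with a window did (3.95%). Of the 36 effectors with a window, 19 held them (52.8%): 12 of the 21 that were higher in KO FT (57.1%) and 7 of the 15 that were not (46.7%). No match was present in the window of Oasl2, and the matches of Ifitm3, the member with the largest change, lay after its start. A match is a run of letters, not evidence of binding.

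Ifit3 and Ifit1, cytoplasmic proteins that recognise or sequester viral RNA, were well separated. Ifit3 (ENSMUSG00000074896, chromosome 19, 34583531 to 34588731, GRCm38) had 391, 375 and 394 CPM in KO FT and 118, 113 and 117 CPM in WT FT. The groups were far apart, with every KO FT library above every WT FT library, a 3.33-fold difference (log2 change 1.74 ± 0.07 SE, edgeR adjusted p = 1.44e-13). Of its 31-base words 61.8% also occur in Ifit3b, its neighbour on chromosome 19, so the split between them is uncertain, and Ifit3b was higher too (1.49 ± 0.15, edgeR adjusted p = 3.95e-07). Ifit1 (ENSMUSG00000034459, chromosome 19, 34640871 to 34650009) had 372, 350.0 and 331 CPM in KO FT and 167, 170.4 and 169 CPM in WT FT, again without overlap and 2.08-fold higher. Its relatives Ifit2 (log2 change 0.16) and Ifit1bl1 (0.13) did not pass, and their groups overlapped.

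Isg15 and enzymes that attach or remove it were among the members that rose. Isg15, a ubiquitin-like protein that is attached to other proteins after interferon, had 74.5, 79.7 and 96.5 CPM in KO FT and 40.4, 41.9 and 39.1 CPM in WT FT. Its KO FT libraries were all well above WT FT (2.07-fold, log2 change 1.05 ± 0.11, edgeR adjusted p = 9.77e-07). Usp18, the protease that removes Isg15 and dampens the interferon receptor, had 167, 162 and 171 CPM in KO FT and 80.9, 76.3 and 80.4 CPM in WT FT, with no overlap (1.07 ± 0.05, edgeR adjusted p = 3.04e-12). Herc6, the mouse ligase for Isg15, rose by 0.60 ± 0.09 on the log2 scale.

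Restriction factors at membranes and of the nucleotide pool followed. Rsad2 (viperin), which makes a chain-terminating nucleotide, had 33.4, 51.5 and 32.7 CPM in KO FT and 9.95, 9.36 and 11.3 CPM in WT FT, and its neighbour Cmpk2, a mitochondrial nucleotide kinase, had 64.2, 63.4 and 70.6 CPM in KO FT and 30.96, 36.02 and 35.52 CPM in WT FT. KO FT library 2 was the highest for Rsad2, and the other 2 were still well above WT FT (log2 change 1.94 ± 0.25, edgeR adjusted p = 8.11e-06). Ifitm3, which blocks viral entry at endosomes, had 13.1, 13.3 and 16.5 CPM in KO FT and 4.03, 3.16 and 2.77 CPM in WT FT, the largest change of the group at 2.08 ± 0.21. Its relatives Ifitm1 and Ifitm2 were below 1 CPM in both groups and did not pass. Bst2 (tetherin), which holds budding virus at the cell surface, rose by 0.72 ± 0.09.

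The Mx proteins are GTPases that trap viral nucleoprotein. The annotation lists Mx2 as a polymorphic pseudogene, and whether the RNA of either gene makes a working protein in these mice was not tested. Mx1 had 21.0, 16.1 and 16.2 CPM in KO FT and 8.35, 7.87 and 7.51 CPM in WT FT (1.16 ± 0.19, edgeR adjusted p = 9.61e-05), and Mx2 rose by 1.41 ± 0.29. The oligoadenylate synthetases, which sense double-stranded RNA and activate RNase L, and the related Oasl genes were split. Oasl2 had 28.0, 27.1 and 33.6 CPM in KO FT and 9.90, 14.25 and 11.03 CPM in WT FT, clear of each other (1.35 ± 0.15, edgeR adjusted p = 1.1e-06). Oas2 (1.01 ± 0.22), Oas1a (0.57 ± 0.06) and Oasl1 (0.53 ± 0.15) also rose, while Oas3 and Oas1g overlapped between the groups, with log2 changes of -0.14 and 0.06. Oas1a shares 68.8% of its 31-base words with other transcripts, chiefly Oas1g.

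**Figure D1:**
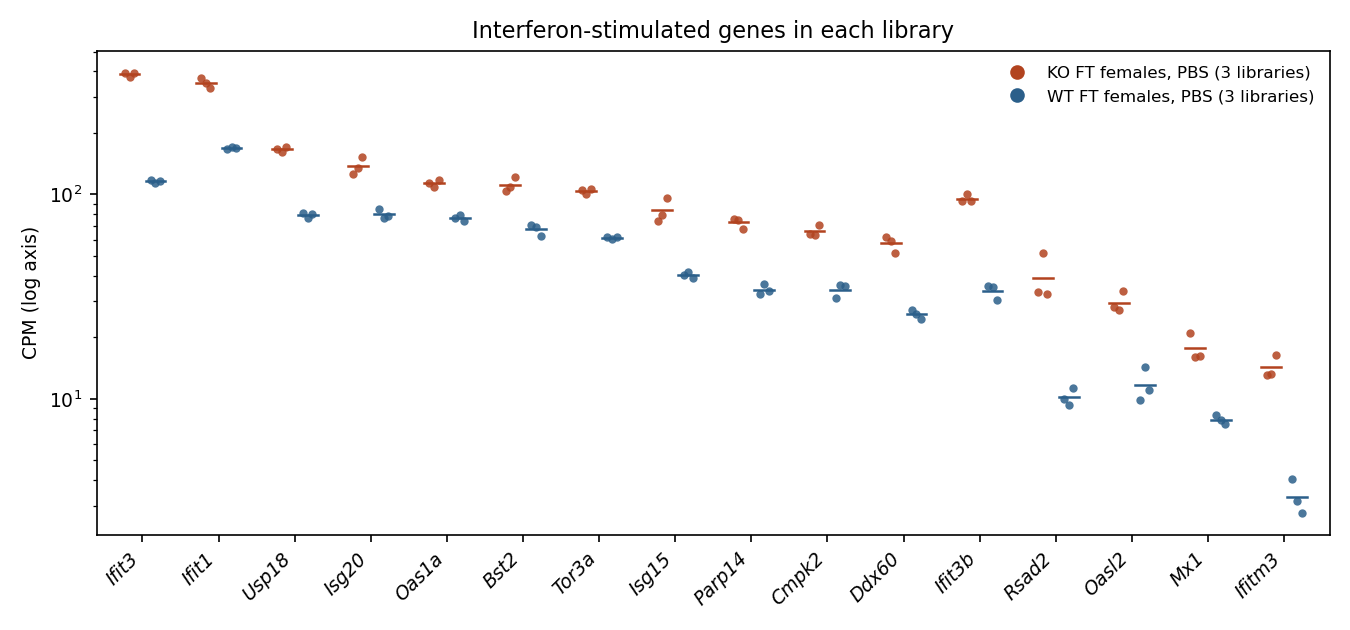
Level in CPM (log axis) of 16 interferon-stimulated antiviral effectors in each KO FT (left, red) and WT FT (right, blue) female PBS library, 1 point per library with the group mean as a line. For each of these genes the KO FT points lie above the WT FT points, as for Ifit3 with 375 to 394 CPM in KO FT and 113 to 118 CPM in WT FT.

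The other members that passed include the helicase Ddx60 (1.15 ± 0.14), the ADP-ribosyltransferase Parp14 (1.09 ± 0.16), the exonuclease Isg20 (0.78 ± 0.08), the nucleic acid sensor Zbp1 (0.37 ± 0.05) and the RNA-activated kinase Eif2ak2 (0.46 ± 0.15). The call of Eif2ak2 was lost without KO FT library 1 or WT FT library 1 or 2. Parp9 and its partner Dtx3l, in the same cluster as Parp14 on chromosome 16, had log2 changes of 0.02 and 0.00 and did not pass. The members that fell were Samd9l, a brake on translation in infected cells (-0.39 ± 0.13), and Slfn8, of the Schlafen family (-0.26 ± 0.09). Both calls were lost under some settings: that of Samd9l without KO FT library 3 or WT FT library 3, and that of Slfn8 without any KO FT library or without WT FT library 2 or 3. With 1 library left out in turn, 26 to 28 members were called higher.

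Among the regulators of the response there was no such one-sided shift. Of 17 nucleic acid sensors and interferon regulatory factors 4 were higher and 4 lower, with a median of 0.03, and 2 were higher without KO FT library 3 or WT FT library 3. Irf7, the factor that interferon itself induces, had 394, 400.4 and 409 CPM in KO FT and 291, 271 and 288 CPM in WT FT (0.50 ± 0.06, edgeR adjusted p = 2.03e-06). Irf1, which interferon-gamma induces most, had 522, 509 and 516 CPM in KO FT and 643, 642 and 627 CPM in WT FT (-0.30 ± 0.05, edgeR adjusted p = 6.8e-05). These factors thus differed in opposite directions, each without overlap. The DNA sensor Cgas (-0.74 ± 0.15) and the adaptor Mavs of the RNA sensors (-0.37 ± 0.08) fell.

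Of 21 interferon receptors and JAK-STAT genes 8 fell and 4 rose (median -0.08). Those that fell include Jak2 (-0.48 ± 0.07), the kinase of the interferon-gamma receptor, Stat6 (-0.46 ± 0.04), which relays interleukin-4, Stat5b (-0.39 ± 0.06), and the phosphatase Ptpn6 (-0.35 ± 0.05). The 4 became 2 without KO FT library 1, KO FT library 2 or WT FT library 3, and 1 without WT FT library 2. Among 16 interferon-inducible GTPases, which attack the vacuoles of intracellular microbes, 6 rose and 1 fell (median 0.09), and none fell without WT FT library 1. Gbp6 rose by 0.36 ± 0.06 and Iigp1 by 0.56 ± 0.10, while Tgtp1, with a log2 change of -0.15, did not pass. Of 20 genes of MHC class I presentation 4 rose, among them the immunoproteasome subunits Psmb10 (0.37 ± 0.06) and Psmb9 (0.28 ± 0.05), and 1 fell, Erap1, the peptide-trimming protease (-0.48 ± 0.08).

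The level of the effectors in KO FT females was also high beside the other groups of the series. Of the 47 members 32 had their highest group mean of the 8 groups in KO FT females after PBS, against 12.3% of the 15938 tested symbols. Ifit3 averaged 387 CPM in KO FT females and 116 CPM in WT FT females after PBS, and 95.4 CPM in KO FT males and 59.0 CPM in WT FT males. After aGC it averaged 31.9 CPM in KO FT females and 135 CPM in WT FT females, and 112 CPM in KO FT males and 43.8 CPM in WT FT males. The KO FT females after PBS held the highest mean, and the KO FT females after aGC the lowest.

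**Figure D2:**
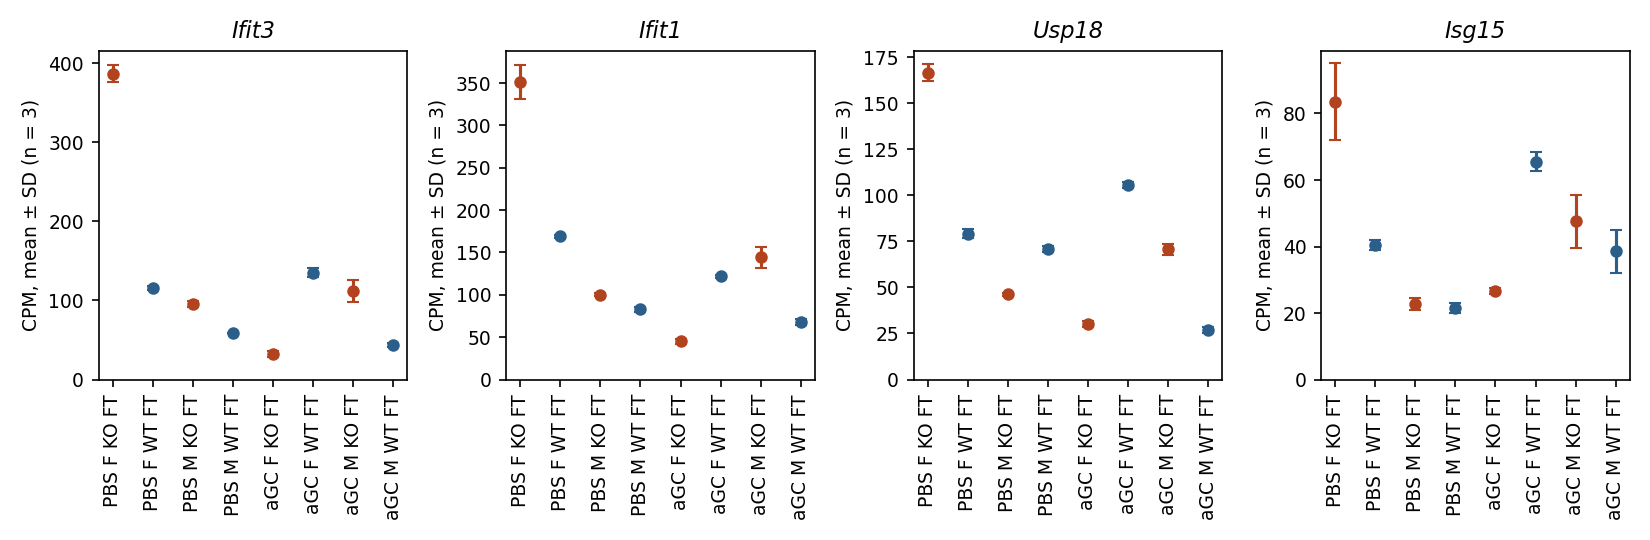
Mean level in CPM (linear axis from 0, bars of 1 SD, n = 3) of Ifit3, Ifit1, Usp18 and Isg15 in the 8 groups of the series, KO FT (red) left of WT FT (blue) within each treatment and sex. In all 4 panels KO FT females after PBS hold the highest mean, 387 CPM for Ifit3.

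The genes with the largest changes were only partly of the interferon group. Among genes called, without overlap, protein-coding and at 10 CPM or more in a group (3219 genes, 1545 higher and 1674 lower), Irf2bp2 changed most. Irf2bp2 (ENSMUSG00000051495, chromosome 8, 126588296 to 126593986), a transcriptional corepressor named for its partner IRF2, had 219.7, 208 and 202 CPM in KO FT and 43.2, 42.2 and 44.2 CPM in WT FT. The KO FT libraries were all far above WT FT (4.85-fold, 2.28 ± 0.09, edgeR adjusted p = 2.49e-14), and the 6 remaining groups averaged between 29.0 and 59.3 CPM. Its promoter window held no match to the letters above, and 20.4% of its 31-base words occur in other transcripts.

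Also among the 15 largest rises were Cdk5rap1, a modifier of mitochondrial tRNA (1.73 ± 0.09), Jaml, an adhesion and costimulatory molecule (1.17 ± 0.08), and Akap9, a scaffold of the Golgi and centrosome (1.12 ± 0.07). Sap18, a subunit of a histone deacetylase complex, had 96.2, 69.8 and 110.4 CPM in KO FT and 22.8, 12.2 and 21.7 CPM in WT FT, with a wide spread in both groups (2.27 ± 0.42). Further rises were Zfp777 (1.69 ± 0.14), Fam98b (1.15 ± 0.22) and Pagr1a, a partner of the MLL3 and MLL4 complexes. Pagr1a had 18.2, 36.6 and 35.0 CPM in KO FT and 15.5, 11.9 and 11.4 CPM in WT FT, and its call (edgeR adjusted p = 0.0182) was lost without KO FT library 2 or 3 or WT FT library 2 or 3. Of its 31-base words 93.2% occur in other transcripts.

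The largest falls came from varied functions. Cd83, a surface molecule of activated lymphocytes and dendritic cells, had 12.1, 11.1 and 11.7 CPM in KO FT and 25.03, 25.97 and 26.73 CPM in WT FT, every KO FT library below every WT FT library (-1.15 ± 0.07, edgeR adjusted p = 3.42e-10). Vipr2, the receptor for vasoactive intestinal peptide VPAC2, had 6.42, 5.31 and 6.38 CPM in KO FT and 15.9, 15.6 and 15.4 CPM in WT FT (-1.37 ± 0.18, edgeR adjusted p = 7.54e-06). Vipr2 and Cd83 both separated the groups cleanly. Acsl3, an acyl-CoA synthetase (-1.29 ± 0.17), Selenoi, an ethanolamine phosphotransferase (-1.39 ± 0.23), and Ankrd9 (-1.30 ± 0.17) fell as well.

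**Figure D3:**
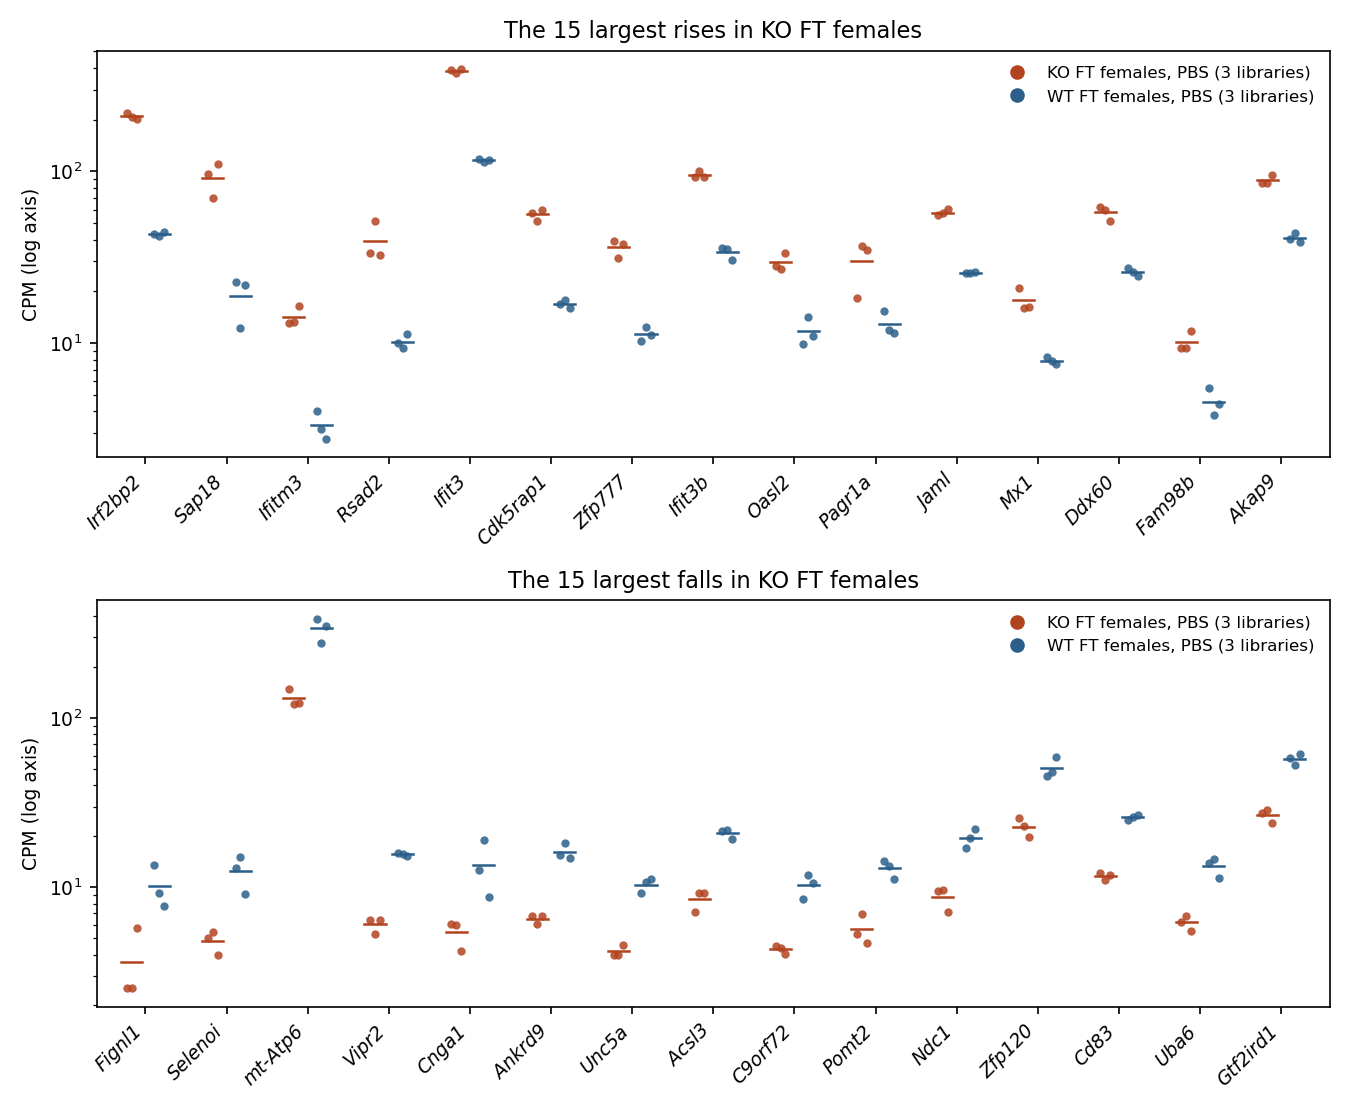
Level in CPM (log axis) in each KO FT (left, red) and WT FT (right, blue) female PBS library of the 15 genes with the largest rises (top) and the 15 with the largest falls (bottom), 1 point per library with the group mean as a line. The rise is largest in Irf2bp2, with means of 209.7 CPM in KO FT and 43.2 CPM in WT FT, and the fall in Fignl1.

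Fignl1, an AAA ATPase of DNA repair, showed the largest fall with 2.52, 2.52 and 5.76 CPM in KO FT and 13.5, 9.31 and 7.71 CPM in WT FT, so KO FT library 3 came near the lowest WT FT library (-1.49 ± 0.26). Further falls were Ndc1 of the nuclear pore (-1.16 ± 0.14), Uba6, a ubiquitin-activating enzyme (-1.12 ± 0.15), Pomt2, a protein mannosyltransferase (-1.22 ± 0.17), C9orf72 (-1.25 ± 0.18) and Gtf2ird1 (-1.10 ± 0.17). The mitochondrially encoded mt-Atp6, a subunit of ATP synthase, had 149, 121 and 124 CPM in KO FT and 386, 279 and 351 CPM in WT FT (-1.37 ± 0.34, edgeR adjusted p = 0.00383). It shares 99.5% of its 31-base words with other annotated transcripts, and mitochondrial genes as a whole held 0.240 to 0.266% of counts in KO FT and 0.357 to 0.373% in WT FT, whose part in the result was not tested.

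Markers of the iNKT1 kind were higher in KO FT. Of 24 such markers 14 rose and none fell, with a median log2 change of 0.28, and 12 to 13 were called higher with any 1 library left out. Nkg7, a protein of cytotoxic granules, had 1351, 1387 and 1603 CPM in KO FT and 1088, 1059 and 1034 CPM in WT FT (0.45 ± 0.06, edgeR adjusted p = 1.34e-05). Ccl5, a chemokine of effector T cells, had 96.9, 96.7 and 103 CPM in KO FT and 68.2, 58.8 and 55.1 CPM in WT FT (0.70 ± 0.11, edgeR adjusted p = 8.93e-05). Both were separated without overlap, KO FT library 3 being the highest for each. Nkg7 was no longer called after offsets for gene length and GC. The summed levels of NK receptors and of NK cell markers, which share Klrb1c with the iNKT1 list, were also higher. Of 20 NK receptors 5 rose and 3 fell (median 0.26), 1 fell without KO FT library 3, and their summed level was 929 to 945 CPM in KO FT and 749 to 772 CPM in WT FT. Of 7 NK cell and ILC1 markers 1 rose and 1 fell, none fell without KO FT library 3 or WT FT library 1, and their sum was 499.7 to 529.7 CPM in KO FT and 423 to 429 CPM in WT FT. Neither sum overlapped between the groups. Klrb1c (NK1.1), which iNKT1 cells also carry, made up most of the sum of the NK cell and ILC1 markers. Ncr1, a receptor that defines NK cells, was at 0.210, 0 and 0 CPM in KO FT. In WT FT it was at 0.480, 0.287 and 0.203 CPM. Its level was low in every library, though 0.480 CPM in WT FT library 1 exceeds the 0.0801 CPM of 3 counts there. The part of NK cells in the iNKT1 result was not tested.

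Cd7, a T and NK cell surface protein, had 86.4, 92.4 and 102 CPM in KO FT and 55.6, 56.6 and 50.5 CPM in WT FT (0.78 ± 0.07, edgeR adjusted p = 1.22e-07). Ifng itself, the defining cytokine, had 23.9, 28.3 and 24.8 CPM in KO FT and 18.8, 17.7 and 18.7 CPM in WT FT (0.47 ± 0.09, edgeR adjusted p = 0.000545). For both genes the lowest KO FT library exceeded the highest WT FT library. Slamf7 (0.53 ± 0.06), the homeobox protein Hopx (0.54 ± 0.08) and Klrb1c, the NK1.1 receptor (0.27 ± 0.06), rose too. Tbx21, which encodes T-bet, had 562, 563 and 548 CPM in KO FT and 496, 526 and 488 CPM in WT FT, and its small rise (0.15 ± 0.05, edgeR adjusted p = 0.0234) was not called without KO FT library 1 or 2 or WT FT library 1 or 3. Klrd1 (CD94) had a log2 change of 0.26 and did not pass.

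Outside that list, the pore-forming Prf1 had 60.9, 62.7 and 61.2 CPM in KO FT and 36.0, 37.1 and 37.8 CPM in WT FT (0.74 ± 0.07, edgeR adjusted p = 8.95e-08). Zfp683 (Hobit), a factor of tissue-resident lymphocytes, rose by 0.38 ± 0.06 and Nfil3, which NK cells and some T cells need, by 1.55 ± 0.20. Of 19 cytotoxic effectors as a whole 4 rose and 4 fell, with Serpinb9, the granzyme inhibitor, lower (-0.53 ± 0.07).

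Markers of the iNKT2 kind were more often lower. Of 16 markers 7 fell and 2 rose, with a median of -0.17, and 1 rose without KO FT library 1 or 3 or WT FT library 1 or 3. Il17rb, the interleukin-25 receptor chain, had 181, 170.3 and 180.1 CPM in KO FT and 242, 234 and 226 CPM in WT FT (-0.40 ± 0.05, edgeR adjusted p = 3e-06). Slamf6, a homotypic receptor needed for iNKT development, had 384, 369 and 363 CPM in KO FT and 551, 547 and 544 CPM in WT FT (-0.56 ± 0.06, edgeR adjusted p = 1.51e-06). Neither gene overlapped between the groups. The chemokine receptor Ccr4 fell (-0.49 ± 0.08) and Plac8 rose (0.65 ± 0.07).

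The cytokine and the lineage factors of that kind did not follow. Il4 had 53.5, 56.8 and 61.0 CPM in KO FT and 58.4, 56.7 and 55.1 CPM in WT FT, with overlapping ranges (edgeR adjusted p = 0.959). Gata3 (log2 change -0.18), Zbtb16, the gene of the PLZF factor of all iNKT cells (-0.05), and Bcl6 (0.05) did not pass. Of 22 iNKT17 markers 6 rose and 2 fell, and 3 rose without KO FT library 2, WT FT library 1 or WT FT library 2. Serpinb1a, a protease inhibitor, had 55.9, 60.4 and 61.4 CPM in KO FT and 33.5, 26.6 and 41.0 CPM in WT FT (0.82 ± 0.15, edgeR adjusted p = 0.00039), and the kinase Blk (0.72 ± 0.13) and the leukotriene receptor Ltb4r1 (0.68 ± 0.12) rose with it. Nrp1, neuropilin, had 64.6, 66.4 and 64.6 CPM in KO FT and 105, 108 and 109.9 CPM in WT FT (-0.72 ± 0.07, edgeR adjusted p = 2.94e-07).

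Receptors of activation and factors downstream of the T cell receptor tended to be lower. Of 19 activation receptors 10 fell and 3 rose (median -0.28), with Cd83, Slamf6, Cd5 and Crtam among the falls. Cd5, whose level follows the strength of receptor signalling, had 310.2, 299 and 317 CPM in KO FT and 411, 413 and 390.0 CPM in WT FT (-0.39 ± 0.05, edgeR adjusted p = 6.99e-06). Crtam, an adhesion receptor of activated cytotoxic cells, had 1.74, 0.863 and 2.02 CPM in KO FT and 6.00, 5.80 and 7.10 CPM in WT FT (-1.96 ± 0.17, edgeR adjusted p = 3.55e-08). The groups did not overlap for either gene, and in males Crtam averaged 17.9 CPM in KO FT and 21.5 CPM in WT FT, far above the females.

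Of 24 factors that receptor signals induce, 7 fell and 2 rose (median -0.09), and 1 rose without KO FT library 3 or WT FT library 2 or 3. Nfatc1 had 204, 219.8 and 212 CPM in KO FT and 330.3, 317 and 334 CPM in WT FT (-0.63 ± 0.05, edgeR adjusted p = 8.17e-09). Nr4a1, an immediate target of the T cell receptor, had 63.0, 63.6 and 70.1 CPM in KO FT and 85.4, 88.6 and 82.0 CPM in WT FT (-0.38 ± 0.07, edgeR adjusted p = 0.000426). Egr1 (-0.26 ± 0.05) and the NF-κB subunit Rel (-0.64 ± 0.10) fell too, whereas the AP-1 subunit Jun rose (0.64 ± 0.10). The proximal kinase Zap70 (-0.28 ± 0.06) was lower, while Trac, the alpha chain constant gene, was higher with 3264, 3246 and 3330.1 CPM in KO FT and 2706, 2609 and 2649 CPM in WT FT. The rises of Trac and Trav11 were not called after offsets for gene length and GC.

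Co-inhibitory receptors followed the activation receptors in part: 4 of 16 fell and none rose (median -0.12). The checkpoint ligand Cd274 (PD-L1) had 27.2, 27.3 and 29.5 CPM in KO FT and 39.3, 40.7 and 39.9 CPM in WT FT (-0.51 ± 0.07, edgeR adjusted p = 1.47e-05). Btla (-0.51 ± 0.08) and Cd200r1 (-0.51 ± 0.12) fell by similar amounts. Nt5e (CD73), which makes adenosine, had 148, 134 and 129.8 CPM in KO FT and 229, 237 and 252 CPM in WT FT, 0.574 of the WT FT level and clear of it in every library.

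The TGF-beta pathway, which supports T cell regulation and gut residence, was lower at several steps. Of 15 genes 6 fell and 3 rose (median -0.16), and the 3 became 1 without KO FT library 2 or WT FT library 3, as the 6 became 4 without KO FT library 2. The ligand Tgfb1 had 56.6, 53.1 and 50.8 CPM in KO FT and 81.3, 87.0 and 75.9 CPM in WT FT (-0.61 ± 0.06, edgeR adjusted p = 2.1e-07). The receptor Tgfbr2 had 109.7, 106 and 119 CPM in KO FT and 163, 166 and 161 CPM in WT FT (-0.55 ± 0.05, edgeR adjusted p = 1.64e-07). The signal transducer Smad3 fell by 0.51 ± 0.07, so ligand, receptor and transducer were each lower without overlap.

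Of 17 markers of regulatory and IL-10-producing cells 4 rose and 4 fell (median 0.00), and their summed level was 848 to 872 CPM in KO FT and 1009 to 1020.1 CPM in WT FT. Foxp3, their defining factor, was at 0 counts in all 3 KO FT libraries and at 1.12, 1.67 and 0.744 CPM in WT FT. That is at least 22.3-fold lower in KO FT against the limit of 3 counts over the group, though 26.4% of its 31-base words occur in other transcripts. Ikzf4, the Eos factor of regulatory T cells, was higher, with 5.68, 5.91 and 5.85 CPM in KO FT and 1.15, 0.862 and 1.83 CPM in WT FT (2.21 ± 0.25, edgeR adjusted p = 1.59e-06). Il10 rested on a few counts, 0, 0.265 and 0.132 CPM in KO FT and 0 in WT FT, and lost its call without KO FT library 2 or 3 or any WT FT library.

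Homing receptors were more often lower. Of 19 homing and chemokine receptors 8 fell and 3 rose (median -0.13), and the 3 became 1 without KO FT library 2 or WT FT library 1. Ccr9, the receptor that guides lymphocytes to the small intestine, had 206, 195 and 203 CPM in KO FT and 297, 304 and 316 CPM in WT FT (-0.60 ± 0.05, edgeR adjusted p = 2.75e-08). Ccr8 fell by 0.65 ± 0.07, Ccr7, the lymph node receptor, by 0.30 ± 0.05, and Gpr183, an oxysterol receptor, by 0.19 ± 0.05, a call that was lost without KO FT library 2. Of the integrins, Itgb7, whose α4β7 form binds gut vessels, had 1236, 1214 and 1244 CPM in KO FT and 1521, 1556 and 1540.4 CPM in WT FT (-0.32 ± 0.05, edgeR adjusted p = 0.000108). Itgal, the LFA-1 chain, fell by 0.41 ± 0.05.

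Among 27 genes of microbial and dietary sensing none rose and 7 fell (median -0.09), 3 of them without KO FT library 2. They include the acid sensor Gpr65 (-0.42 ± 0.06) and the retinoid receptors Rxrb (-0.27 ± 0.06) and Rarg (-0.79 ± 0.20). Of 16 TNF superfamily ligands and receptors 1 rose and 5 fell (median -0.14), and 2 rose without WT FT library 2. Cd40lg, the helper ligand for B cells, had 248, 248 and 236 CPM in KO FT and 309, 308 and 318 CPM in WT FT (-0.35 ± 0.05, edgeR adjusted p = 3.46e-05), and Tnfsf11 (RANKL) fell by 0.53 ± 0.06. Tnfrsf9 (4-1BB) overlapped between the groups.

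Chaperones of the heat shock response were lower throughout those that passed. Of 18 tested members 10 fell and none rose (median -0.25), and 7 to 8 fell with any 1 library left out, with 1 higher without KO FT library 1. Hspa8, the constitutive HSC70, had 2463, 2454 and 2441 CPM in KO FT and 3871, 3817 and 3838 CPM in WT FT, a very tight pair of groups (-0.65 ± 0.05, edgeR adjusted p = 1.08e-09). Hsph1, its exchange factor, had 103, 85.8 and 89.2 CPM in KO FT and 169, 164 and 174 CPM in WT FT (-0.87 ± 0.08, edgeR adjusted p = 6.67e-08). Hsp90ab1 (-0.37 ± 0.04) and the cochaperone Stip1 (-0.44 ± 0.04) fell too. The other 8 members did not pass, among them the stress-inducible Hspa1a and Hspa1b. Of the 31-base words of Hspa8 44.8% occur in other transcripts.

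Of 45 proliferation genes 16 fell and none rose (median -0.20), with 1 higher without WT FT library 1. The replication helicase subunit Mcm5 had 88.9, 90.7 and 92.2 CPM in KO FT and 126, 128 and 117 CPM in WT FT (-0.45 ± 0.06, edgeR adjusted p = 5.87e-06). Prim1, the DNA primase, fell by 0.76 ± 0.11, and the mitotic genes Ccnb1 (-1.24 ± 0.17) and Ube2c (-1.60 ± 0.24) fell at low levels. Mki67, the common marker of cycling cells, was near 3 CPM in both groups and overlapped (edgeR adjusted p = 0.911).

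Genes of the ribosome and of respiration were higher in small, common steps. Of 48 cytosolic ribosomal proteins 38 rose and 1 fell (median 0.32), 27 rose without KO FT library 3, and none fell without KO FT library 3 or WT FT library 2. Rps16 had 193, 195 and 231 CPM in KO FT and 150.2, 132 and 141 CPM in WT FT (0.55 ± 0.09, edgeR adjusted p = 6.73e-05), with KO FT library 3 above the others. Of 45 nuclear genes of oxidative phosphorylation 29 rose and 1 fell (median 0.24), and 19 rose without KO FT library 3. Ndufa9, a subunit of complex I, had 236, 241 and 252 CPM in KO FT and 203, 198 and 186 CPM in WT FT (0.31 ± 0.05, edgeR adjusted p = 3.82e-05). The single fall was Cycs, cytochrome c (-0.39 ± 0.07).

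Transcript length moved with these groups. The 1600 shortest genes, with exons of up to 1003 bases, had a median log2 change of 0.24 and the 1595 longest -0.04, and across 15942 genes, which are not independent replicates, Spearman's rho between length and log2 change was -0.159. Ribosomal and respiratory genes and the iNKT1 markers are short, with median exon lengths of 1835, 1972 and 1935.5 bases against 3749 over all tested genes, while the interferon effectors had 3614. After offsets for length and GC share 27 ribosomal and 20 respiratory genes rose, 14 iNKT1 markers rose and 1 fell, and 31 interferon effectors rose.

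Of 27 genes of apoptosis and survival 8 rose and 2 fell (median 0.22), though 5 rose without KO FT library 3. The list holds genes that promote cell death as well as survival, so these counts do not show a shift towards survival. Among the rises was the death-promoting Pmaip1 (Noxa), higher by 2.61 on the log2 scale. Pim2, a survival kinase, had 192, 210.3 and 222 CPM in KO FT and 141, 129.5 and 117 CPM in WT FT (0.68 ± 0.07, edgeR adjusted p = 5.11e-07), and the initiator caspase Casp8 rose by 0.30 ± 0.04. Of 24 sterol genes 6 fell and 1 rose, 3 fell without WT FT library 3, and none rose without KO FT library 3 or WT FT library 1. The regulator Srebf1 had 117, 124 and 90.3 CPM in KO FT and 179, 202 and 186 CPM in WT FT (-0.78 ± 0.09, edgeR adjusted p = 3.1e-06). In glycolysis Eno1 rose by 0.30 ± 0.05, and Hif1a, the hypoxia factor, fell by 0.34 ± 0.07.

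**Figure D4:**
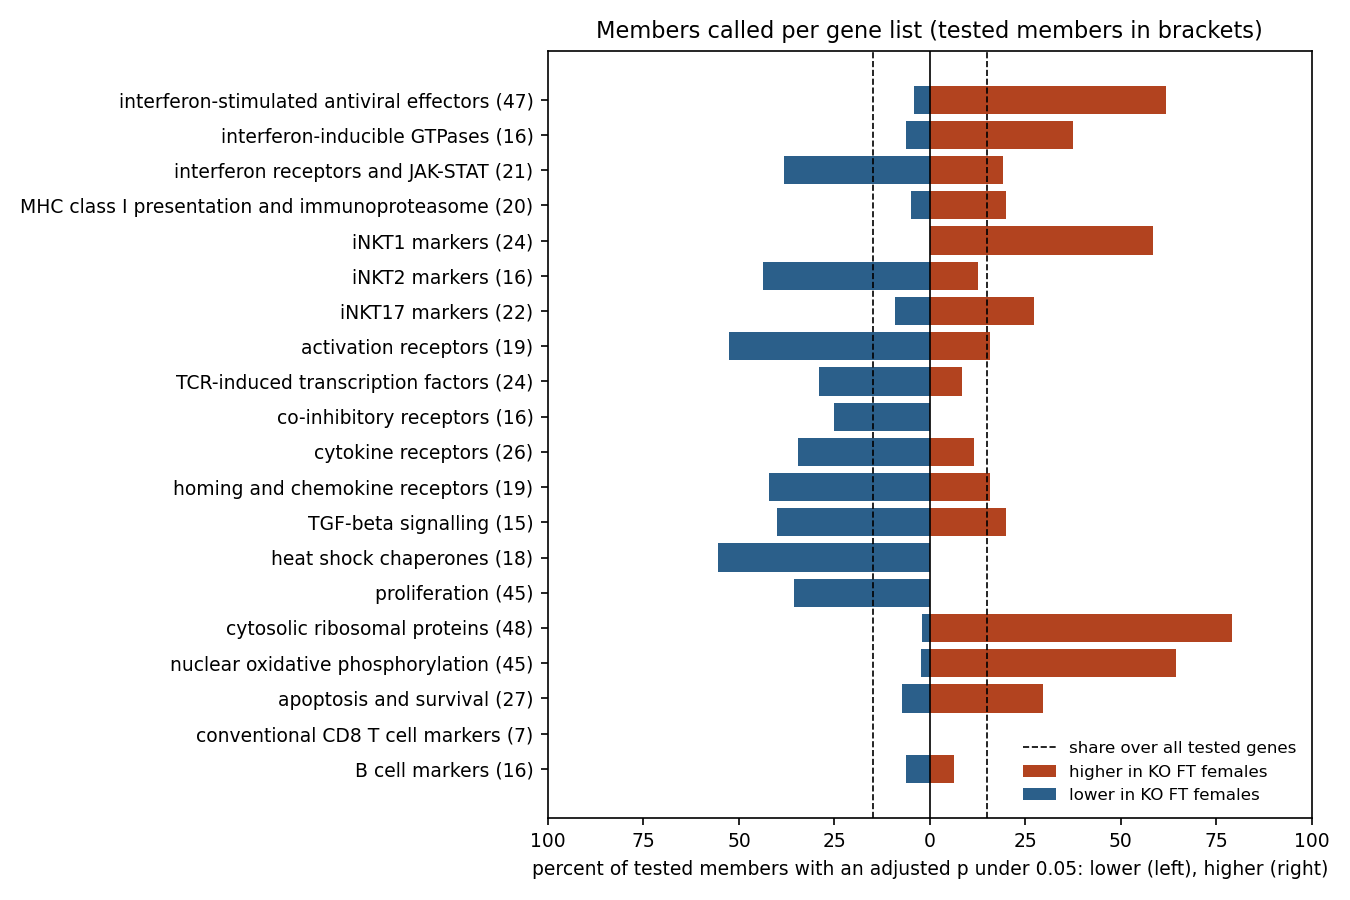
Percent of tested members that were higher (red, right of 0) and lower (blue, left of 0) in KO FT females for 20 gene groups, with dashed lines at the share of 14.9% over all tested genes in each direction. Ribosomal, respiratory and interferon effector genes and iNKT1 markers have the most members higher, and heat shock chaperones and activation receptors the most lower.

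The same comparison in males differed in many of these genes. In males 6787 genes passed (42.5%), 3366 higher (21.1%) and 3421 lower (21.4%) in KO FT, and the difference between the female and male effects passed in 6831 genes (42.8%), positive in 3468 (21.7%) and negative in 3363 (21.1%). Against 1.5-fold, 1797 genes passed in males (11.3%; 6.02% higher and 5.24% lower) and 2241 for the difference (14%; 6.21% positive and 7.84% negative). The male libraries carried CD8 markers at 636 to 654 CPM in KO FT and 1133 to 1155 CPM in WT FT, and their part in the difference was not tested. Of the 47 interferon effectors 24 rose and 5 fell in males, and the difference was positive in 19 and negative in 6. Usp18, Mx1 and Xaf1 rose in females and fell in males.

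Mx1 differed most: it averaged 17.7 CPM in KO FT females and 7.91 CPM in WT FT females, but 0.104 CPM in KO FT males and 10.1 CPM in WT FT males. The difference of the log2 changes was 7.81 ± 0.41 (edgeR adjusted p = 3.53e-12). Its size is uncertain, since the KO FT male libraries had 0.155, 0.0676 and 0.0889 CPM of Mx1. Each value lies below the level of 3 counts in its library, 0.232, 0.101 and 0.267 CPM. For Ifit3 the effect was positive in both sexes and larger in females, by 1.04 ± 0.10 (edgeR adjusted p = 8.01e-08). Irf2bp2 averaged 41.7 CPM in KO FT males and 43.3 CPM in WT FT males, means close to that of WT FT females (difference 2.34 ± 0.12, edgeR adjusted p = 3.53e-12).

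Several gene groups also differed between the sexes. Of the ribosomal genes none rose and 18 fell in males, and the difference was positive in 42 of 48. Of the respiratory genes none rose and 27 fell in males, and the difference was positive in 38 of 45. The length trend also ran the other way in males: Spearman's rho across the 15942 genes was 0.141, with a median log2 change of -0.16 in the 1600 shortest genes and 0.08 in the 1595 longest, and its part in the difference was not tested. Of the iNKT1 markers 7 rose and 8 fell in males, with a positive difference in 11 and a negative one in 2 of 24. The activation receptors had a negative difference in 13 and a positive one in 4 of 19.

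Single genes show the reversal. Ccr9 averaged 201 CPM in KO FT and 305 CPM in WT FT females, but 400.3 CPM in KO FT and 236 CPM in WT FT males (difference -1.36 ± 0.07, edgeR adjusted p = 3.53e-12). Il17rb averaged 177 CPM in KO FT and 234 CPM in WT FT females, and 293 CPM in KO FT and 152 CPM in WT FT males (difference -1.35 ± 0.07, edgeR adjusted p = 3.33e-12). Cd83 fell in both sexes, with changes of -1.15 in females and -1.35 in males on the log2 scale, with a difference of 0.20 ± 0.10 that did not pass (edgeR adjusted p = 0.125).

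**Figure D5:**
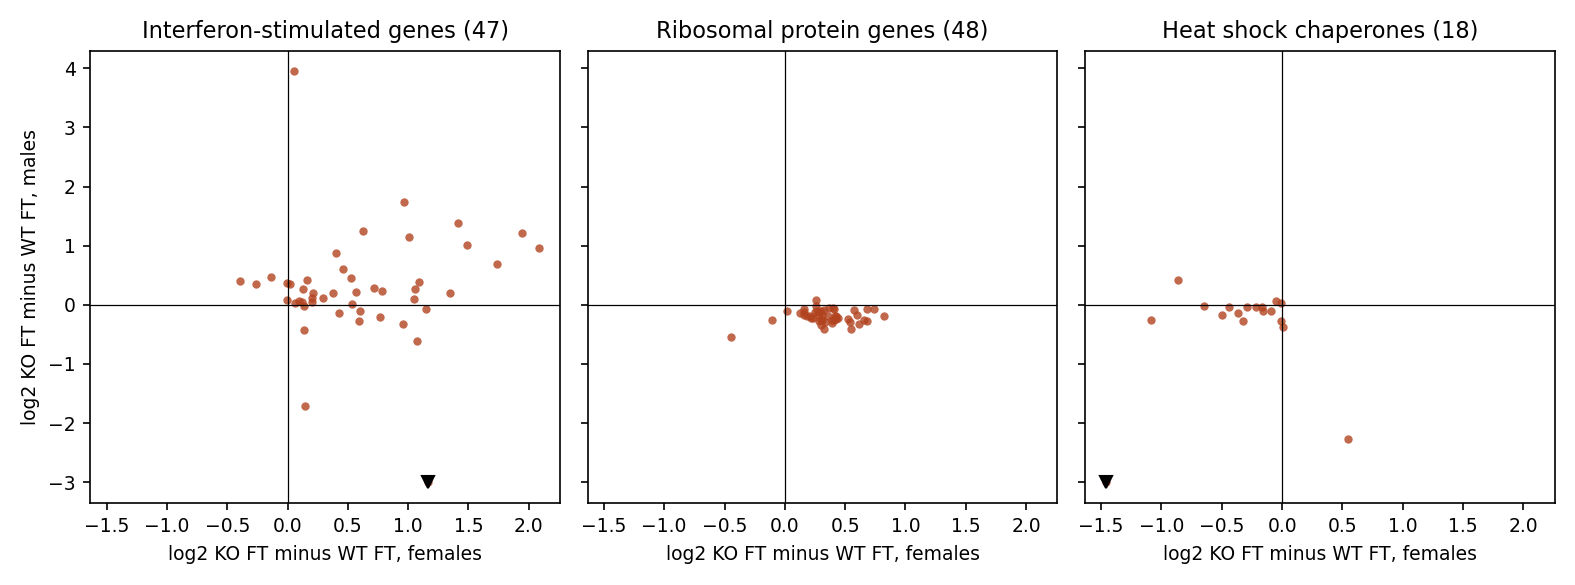
Log2 change, KO FT minus WT FT after PBS, in females (horizontal axis) and males (vertical axis), 1 point per gene, for 47 interferon-stimulated effectors, 48 ribosomal protein genes and 18 heat shock chaperones. Ribosomal genes lie mostly to the right of 0 in females and below 0 in males, and triangles at the lower edge mark male values below the axis, Mx1 with -6.65 in the first panel. That value rests on less than the level of 3 counts in each KO FT male library.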

How the data were processed

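Gene-level estimated counts from kallisto, on GRCm38 (mm10), were deposited by the authors as 1 table, per the submitters' processing notes. RNA came from a single-cell RNA kit and libraries from Nextera XT, which does not keep strand, per the labels' protocols. No label names the version of kallisto, its annotation, the sort gate or how many mice were pooled. Estimated counts were rounded to whole numbers. The 24 libraries were fitted with 8 group means in edgeR 4.0.16 (limma 3.58.1, R 4.3.3): filterByExpr (minimum count 10, minimum total 15), TMM scaling, quasi-likelihood tests with 16 residual degrees of freedom, and Benjamini-Hochberg adjustment over all 15953 tested genes at 0.05. A second test used a threshold of 1.5-fold (glmTreat). CPM are TMM-scaled. Standard errors come from the log2 change and its F statistic. All 55335 genes of the table were read, and 55154 matched the annotation. Scripts ran in Python 3.11.15 with pandas 2.3.3, numpy 2.4.6 and matplotlib 3.10.9 and were tested on simulated data. Shares of 31-base words that a gene's transcripts have in common with other genes mark uncertain counting.

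The members and gene lists were chosen with earlier results of these data known. Named genes are the 15 largest rises and falls among called, non-overlapping, protein-coding genes at 10 CPM or more, up to 4 called and 2 uncalled members of each list, all interferon effectors, and a fixed set of lineage and control genes. Ifnz and Trbv13-2 lie outside this rule and were named after their values were seen. Alternatives were other scalings, DESeq2 1.42.0, other filters, thinned depth, fewer libraries, a replicate term, libraries summed per group, and, chosen after seeing the data, length and GC offsets. Results for some items are not reported here.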

Additional observations from a re-analysis of the deposited data

Results flagged for a closer look

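The effect of KO FT after PBS, as a log2 change, was compared between females and males for 20 genes by a contrast of the sexes within the fit, and it differed at an edgeR adjusted p under 0.05 in 20 of 20. These genes were chosen with their female results known, so the count describes them only. The CD8 marker sum differed between the transplants in males, at 636 to 654 CPM in KO FT and 1133 to 1155 CPM in WT FT, and its part in these differences was not tested. Among interferon-stimulated genes the female minus male difference was 1.04 for Ifit3, 0.79 for Ifit1, 1.69 for Usp18, 0.95 for Isg15, 7.81 for Mx1 and 1.15 for Oasl2. Mx1 was below the level of 3 counts in each KO FT male library, so the size of its difference is uncertain. For the corepressor Irf2bp2 it was 2.34. Among effector genes it was 1.26 for Ccl5, 1.17 for Cd7 and 0.67 for Ifng. Differences were negative for Slamf6 (-0.69), Il17rb (-1.35), Ccr9 (-1.36), Nrp1 (-1.05), Hspa8 (-0.63) and Tgfb1 (-0.64). They were positive for the ribosomal Rps16 (0.96), the respiratory Ndufa9 (0.58) and the macrophage genes Lyz2 (4.57) and C1qb (2.17). Lyz2 was lower in KO FT in both sexes, with log2 changes of -0.75 in females and -5.31 in males.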

How the results depend on the processing

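Counts of called genes stayed within 1.5 times under other scalings, DESeq2, both filters, the compared libraries alone, thinned depth, the replicate term and the length and GC offsets. Against 1.5-fold, 285 genes passed in females, 1797 in males and 2241 for the difference between the sexes. After summing each group to 1 profile, which leaves 1 residual degree of freedom, 2, 3 and 2 genes passed, with 271, 772 and 559 at an unadjusted p under 0.05. That fit has no 3-way term, so its female value borrows from the other groups. Leaving out 1 library gave 3620 to 4134 genes in females, 5791 to 5992 in males and 6210 to 6511 for the difference. With the replicate number as a block 4574, 6615 and 6661 genes passed. Deviations of same-numbered KO FT and WT FT libraries from their group means correlated at r = -0.12, 0.15 and -0.10. For differently numbered libraries r was -0.15 to 0.23. Deviations from a mean of 3 libraries are tied to each other, so these values cannot decide whether the numbers pair the libraries.

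Signs turned, where the cause was not tested, for the log2 change of Il4 (-0.0064 with thinned depth, -0.10 with length and GC offsets, -0.0434 to 0.0529 with 1 library left out), Bcl6 (-0.051 to 0.16 with 1 left out) and Mki67 (-0.23 to 0.15 with 1 left out). With summed profiles they turned for Usp18 (-0.14), Mx1 (-1.01), Cmpk2 (-0.14), Slfn1 (-0.032), Jak2 (0.0045) and the log2 change of Cd8b1 (-0.0252), and with length and GC offsets for Zbtb16 (0.057), Cd8b1 (-0.052) and Traj18 (-0.11). Depth limits genes near 0.0801 to 0.203 CPM, the level of 3 counts.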
